A study of Mus musculus with 12 samples.

Results

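The calcitonin peptide family and its receptors were followed in whole spinal cord as 9 genes out of the 38924 in the deposited tables. They are the peptide precursor genes Calca, Calcb, Adm and Adm2, the receptor genes Calcrl and Calcr, and the genes of the receptor activity modifying proteins Ramp1, Ramp2 and Ramp3. They were picked by name as a family, and with the genotype difference of Adm2, Calca and Calcb in these same mice already known. For that reason every P278KY to WT difference in a member is given as a description, without a test. Poly(A) RNA was sequenced from 12 mice aged 8 weeks on a B6J;CAST strain background. Of these, 6 (3 females and 3 males) were heterozygous at Gars, which encodes glycyl-tRNA synthetase, and carried the P278KY allele beside a normal copy. The other 6 (3 females and 3 males) were wild type (WT). Each library was labelled with its own mouse number, and mice are named here by genotype, sex and that number. The allele changes the protein, so gene-level counts of Gars cannot check the genotype labels.

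The peptides of this family act outside the cell on receptors that couple to Gs and raise cyclic AMP. Calca yields either calcitonin, a thyroid hormone of calcium balance, or, in neurons, the neuropeptide CGRP alpha, by a choice of exons and polyadenylation site; Calcb yields the closely related CGRP beta. In the spinal cord CGRP is known from motor neurons, which carry it to the neuromuscular junction, and from the central endings of sensory neurons, whose cell bodies and RNA lie mainly in the dorsal root ganglia. Adrenomedullin (Adm) is a vasodilator made by endothelium and many other cells, and adrenomedullin 2 or intermedin (Adm2) is a related peptide. The receptor protein encoded by Calcrl reaches the cell surface with a RAMP: with RAMP1 it is the CGRP receptor, and with RAMP2 or RAMP3 an adrenomedullin receptor.

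Calca and Calcb lie 82285 bases apart on mouse chromosome 7 and differ little in a stretch of the exon that holds CGRP. It is shown because both genes were lower in the mutant and the reads had to tell them apart. The coding parts of exon 4 of both CGRP transcripts (GENCODE M21, GRCm38) were aligned for their best match without gaps. That match covers 142 bases with 5 mismatches, an identity of 96.5%, and is not the whole exon. It lies at chr7:114632458-114632599 on the minus strand in Calca and at chr7:114721975-114722116 on the plus strand in Calcb. Capitals mark the bases that differ:
Calca: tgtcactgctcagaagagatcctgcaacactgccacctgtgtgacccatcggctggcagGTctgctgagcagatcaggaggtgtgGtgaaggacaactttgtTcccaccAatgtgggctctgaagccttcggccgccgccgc
Calcb: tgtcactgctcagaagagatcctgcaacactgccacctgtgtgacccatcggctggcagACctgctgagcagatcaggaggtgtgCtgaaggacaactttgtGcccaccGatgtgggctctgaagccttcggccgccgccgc
The longest run of bases shared by the full transcripts was 60 bases, shorter than a 75-base read. No stretch of 75 bases was common to both. The expected counts of both genes were whole numbers, to the last decimal deposited, in 12 of 12 mice, which is what RSEM gives where no read is shared with another gene; among the members only Ramp2 (whole in 1 mouse) and Ramp3 (whole in 11 mice) had fractional counts.

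Libraries held between 26982140 and 39339999 expected counts. Several stood apart in markers of tissue other than cord. Summed markers of sensory ganglion neurons (11 genes, among them the sodium channel gene Scn10a) reached 81.7 counts scaled to library size (CPM) in P278KY male 7, against 18.3 to 21.9 CPM in the other 5 P278KY mice; they were 45.6 CPM in WT female 10 and 35.2 CPM in WT male 11, against 12.3 to 13.9 CPM in the other 4 WT mice. Scn10a itself was at 0 in P278KY female 4 and P278KY male 6. Skeletal muscle markers (8 genes) summed to 3015 CPM in P278KY female 3 and 1118 CPM in P278KY female 4, and to 8329 CPM in WT female 1 and 1934 CPM in WT female 2, against 32.2 to 212.6 CPM elsewhere. Markers of cord tissue itself (8 genes, including myelin, astrocyte, neuronal and Hox genes) ranged from 24550 to 30742 CPM in P278KY mice and from 25915 to 35067 CPM in WT mice, and none of the 8 passed the genotype test.

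Among the 17980 genes tested with edgeR's quasi-likelihood test, 956 passed an adjusted p of 0.05 for genotype (5.32% of genes), 425 higher (2.36%) and 531 lower (2.95%) in P278KY mice. These shares depend on the mice in the fit: 84 genes passed without mice 9 to 12, and 557 without mice 1 to 4. On the log2(TPM + 1) scale, where TPM stands for transcript abundance per length and library, the split of calls by limma was 1358 higher and 248 lower, and the median change of all genes was 0.06, against -0.0031 on the count scale. All 9 members passed the filter on low counts, Adm2 through the P278KY mice alone. Of the 9 members, 3 were among the genes called, Adm2 higher and Calca and Calcb lower. These were also the 3 members whose CPM ranges did not overlap between genotypes, which held for 3.73% of all genes tested (1.73% with P278KY above, 2% with P278KY below). Since the choice of members used this contrast, nothing is read from these counts. The median log2 change over the 9 members was -0.11.

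**Figure D1:**
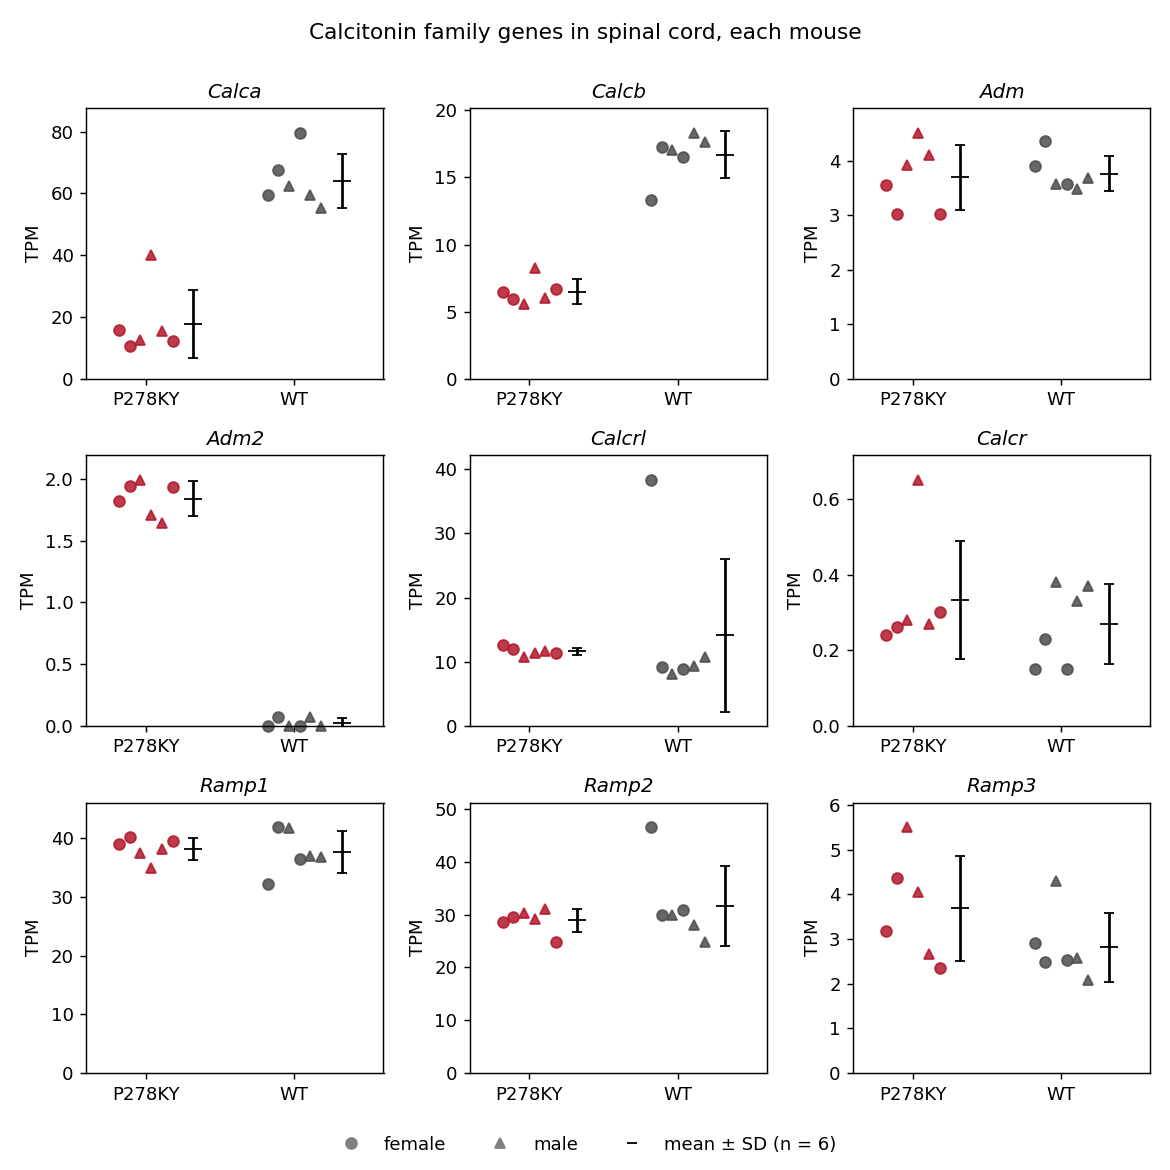
TPM of the 9 genes in each mouse, by genotype (P278KY left, WT right), with females as circles, males as triangles, and the mean ± SD of 6 mice as bars; each panel has its own axis from 0. Calca and Calcb lie lower and Adm2 higher in all 6 P278KY mice than in any WT mouse, and single mice stand apart in Calca (P278KY male 7), Calcrl and Ramp2 (WT female 1).

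Calca, the precursor of CGRP alpha, was lower in P278KY cords. Its TPM in P278KY females 3, 4 and 9 was 15.92, 10.67 and 12.16, and in P278KY males 6, 7 and 8 it was 12.66, 39.95 and 15.37. In WT females 1, 2 and 10 it was 59.41, 67.55 and 79.60 TPM, and in WT males 5, 11 and 12 it was 62.53, 59.38 and 55.40 TPM. The genotypes did not overlap, and 5 of the 6 P278KY mice lay close together while male 7 lay between them and the WT mice. Means were 17.8 ± 11.04 TPM in P278KY mice and 64.0 ± 8.65 TPM in WT mice (SD, n = 6 each), and the fitted log2 change of counts was -1.97 (SE 0.31), a level 3.91-fold lower in P278KY. Fewer cells that express the gene and less RNA per cell cannot be told apart in whole cord.

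P278KY male 7 was also the mouse with the most sensory ganglion RNA, which is a known source of Calca. Without the 3 mice rich in ganglion markers (7, 10 and 11), Calca was at 13.4 ± 2.22 TPM in P278KY mice (SD, n = 5) and 61.2 ± 5.13 TPM in WT mice (SD, n = 4), again with no overlap. Between these mice the ganglion sums differed mainly in 2 genes, P2rx3 (5.35 to 7.19 CPM in P278KY mice and 1.25 to 1.90 CPM in WT mice) and Avil (2.19 to 3.08 CPM in P278KY mice and 0.277 to 0.813 CPM in WT mice). Scn10a was at 0 to 0.166 CPM in those P278KY mice and 0.0678 to 0.301 CPM in those WT mice, and Mrgprd was at 0 in the 5 P278KY mice and in 2 of the 4 WT mice. Over all 12 mice the median log2 change of the 10 tested markers was -0.31. Of that list 1 gene passed the genotype test: P2rx3, an ATP-gated channel gene, rose in P278KY (log2 change 1.81, SE 0.30, edgeR adjusted p = 0.00525), and the other 9 tested did not pass. Markers of motor neurons, another source of CGRP, summed over 9 genes to 314 to 348 CPM in P278KY mice and 357 to 470 CPM in WT mice. Of the 9, 5 were called lower (Chat, Slc5a7, Prph, Ret and Chodl) and 0 higher, beside 2.95% and 2.36% of all genes. The others did not pass: Mnx1 (log2 change -0.25), Isl1 (-0.06), Isl2 (-0.72) and Esrrg (0.02). These sums and changes include the ganglion-rich mice 7, 10 and 11. P278KY male 7 had 3.41 CPM of Isl1, 3.6 CPM of Isl2 and 53.7 CPM of Prph. The other P278KY mice had 1.24 to 2.03, 0.962 to 1.52 and 34.4 to 36.7 CPM. Among P278KY mice male 7 was also highest in Esrrg, but lowest in Mnx1 and Chodl and within the others in Chat, Slc5a7 and Ret. Whether these markers are free of ganglion RNA was not tested. Schwann cell markers (7 genes) summed to 435 to 1564 CPM in P278KY mice and 1498 to 2607 CPM in WT mice, with 2 of 7 called lower and 0 higher. The part of sensory ganglion, motor neuron and Schwann cell content in the lower Calca level was not tested.

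Calcb, the precursor of CGRP beta, was lower as well and varied less among mice. P278KY females 3, 4 and 9 had 6.43, 5.91 and 6.68 TPM, and P278KY males 6, 7 and 8 had 5.60, 8.24 and 6.02 TPM. WT females 1, 2 and 10 had 13.31, 17.26 and 16.54 TPM, and WT males 5, 11 and 12 had 17.01, 18.32 and 17.66 TPM. The highest P278KY mouse, male 7, stayed below the lowest WT mouse, female 1. The averages were 6.48 ± 0.944 TPM in P278KY mice and 16.7 ± 1.76 TPM in WT mice (SD, n = 6 each), with a log2 change of -1.50 (SE 0.11), or 2.82-fold lower in P278KY. Without mice 7, 10 and 11 they were 6.13 ± 0.428 TPM in P278KY mice (SD, n = 5) and 16.3 ± 2.02 TPM in WT mice (SD, n = 4).

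The balance of the CGRP genes differed between most mice of the genotypes. The ratio of Calca to Calcb TPM was 2.63 ± 1.13 in P278KY mice, with a range of 1.81 to 4.85, and 3.87 ± 0.665 in WT mice, with a range of 3.14 to 4.81. The ranges overlapped through P278KY male 7, whose ratio of 4.85 was the highest of all 12 mice. On deviations of log2 CPM from the 4 genotype and sex means, Calca and Calcb correlated at r = 0.72 over the 12 mice, which share libraries and in which male 7 deviates most for both genes.

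The deposited tables give for each gene and mouse the mean length of its transcripts weighted by abundance, which follows the transcript mix. In M21 the CGRP transcript of Calca measures 994 bases and the calcitonin transcript 830 bases. Calca's weighted length was 988.72 to 992.00 bases in P278KY mice and 990.60 to 991.71 bases in WT mice. The longest weighted length, 992 bases in P278KY female 4, was taken as that of the CGRP transcript, which sets that mouse to 0. For the calcitonin transcript the M21 length was taken, though M21 lengths can differ from the deposited ones (Adm2: 1298 and 1043 bases). Under these 2 assumptions the lengths imply a calcitonin share of Calca transcripts of 0 to 2.03% (median 0.812%) in P278KY mice and 0.179 to 0.864% (median 0.302%) in WT mice. On these assumptions the transcript mix was nearly all CGRP in all 12 mice, with overlapping ranges at Calca counts of 145 to 527 in P278KY mice and 681 to 1161 in WT mice. The weighted length of Calcb was 911 ± 37.6 bases in P278KY mice and 940 ± 20.3 bases in WT mice (SD, n = 6 each), also overlapping.

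Adm2, the precursor of adrenomedullin 2, had counts in every P278KY cord and at most 1 count in any WT cord. Its expected counts in P278KY females 3, 4 and 9 were 26, 28 and 26, and in P278KY males 6, 7 and 8 they were 36, 24 and 23. WT females 1, 2 and 10 had 0, 1 and 0 counts, and WT males 5, 11 and 12 had 0, 1 and 0. All P278KY mice lay far above all WT mice, and the P278KY mice resembled each other, at 1.64 to 1.99 TPM (mean 1.84 ± 0.140, SD, n = 6), against 0 to 0.07 TPM in WT mice. Summed over mice, 163 counts in P278KY stood against 2 in WT, a ratio of 74.1 with a 95% exact interval of 20.2 to 617 that covers counting error only and is no test of the genotypes. The fitted log2 change of 5.77 (SE 0.46) depends on the prior count and is not a bound. Adm2 stayed a minor peptide transcript: its P278KY mean was below that of Adm in the same mice. The ganglion-rich P278KY male 7 had 1.71 TPM, within the range of the others, and without mice 7, 10 and 11 the mean was 1.86 TPM in P278KY mice and 0.0175 TPM in WT mice.

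The promoters of Adm2 and Calca are printed as those of the peptide genes that differed in opposite directions and have an entry in the RefSeq promoter table (GRCm38.p6, 250 bases before to 50 bases after the start); 7 of the 9 members had an entry, Calcb and Ramp2 being the others. Adm2 (chr15:89322470-89322769) is on the plus strand and Calca (chr7:114636308-114636607) on the minus strand, both shown 5′ to 3′:
Adm2: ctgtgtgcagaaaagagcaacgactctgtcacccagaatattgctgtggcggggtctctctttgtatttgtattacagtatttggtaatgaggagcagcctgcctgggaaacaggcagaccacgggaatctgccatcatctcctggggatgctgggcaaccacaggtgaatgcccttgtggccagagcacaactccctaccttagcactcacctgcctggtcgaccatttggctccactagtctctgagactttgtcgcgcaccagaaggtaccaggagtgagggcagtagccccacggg
Calca: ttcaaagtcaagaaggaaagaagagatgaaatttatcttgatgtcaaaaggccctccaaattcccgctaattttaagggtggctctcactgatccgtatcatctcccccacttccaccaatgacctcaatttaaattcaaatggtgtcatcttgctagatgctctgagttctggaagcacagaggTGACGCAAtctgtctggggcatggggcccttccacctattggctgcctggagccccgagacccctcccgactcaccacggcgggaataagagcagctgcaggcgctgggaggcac
Capitals mark a match to TGANGCAA, a relaxed pattern, with any base allowed at N, modelled on the composite element bound by C/EBP and ATF factors. It was searched on both strands together with the cyclic AMP response element TGACGTCA, both motifs being chosen after the sequences were seen. The Calca window held 1 match, TGACGCAA, with C at the open base, beginning 65 bases before the start. The Adm2 window held none of either motif. Binding of any factor to the match was not measured. TGANGCAA occurred in 1213 of 32851 promoters of this length (3.69%) and TGACGTCA in 588 (1.79%). Among the members with an entry, TGANGCAA matched in 1 and TGACGTCA in 0.

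Adm, the precursor of adrenomedullin, differed little. P278KY females 3, 4 and 9 had 3.56, 3.03 and 3.03 TPM, and P278KY males 6, 7 and 8 had 3.93, 4.51 and 4.10 TPM, against 3.90, 4.36 and 3.57 TPM in WT females 1, 2 and 10 and 3.58, 3.48 and 3.68 TPM in WT males 5, 11 and 12. The genotypes overlapped, with means of 3.69 ± 0.598 TPM in P278KY mice and 3.76 ± 0.326 TPM in WT mice (SD, n = 6 each) and a log2 change of -0.11 (SE 0.12). In TPM, P278KY females lay below every WT female and P278KY males above every WT male, but in CPM P278KY male 6, with 2.44, lay below WT male 12, with 2.49. On the count scale the log2 change was -0.34 (SE 0.15) in females and 0.12 (SE 0.15) in males. That difference between the sexes did not pass over all genes in edgeR's interaction test (0.46, SE 0.21, unadjusted p = 0.0482, adjusted p = 1.0).

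Together the 4 precursor genes summed to 29.8 ± 12.3 TPM in P278KY mice and 84.4 ± 8.82 TPM in WT mice (SD, n = 6 each). The highest P278KY sum, 54.4 TPM in male 7, was below the lowest WT sum of 76.6 TPM. Calca made up 56.7 ± 8.74% of the sum in P278KY mice and 75.6 ± 2.82% in WT mice.

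**Figure D2:**
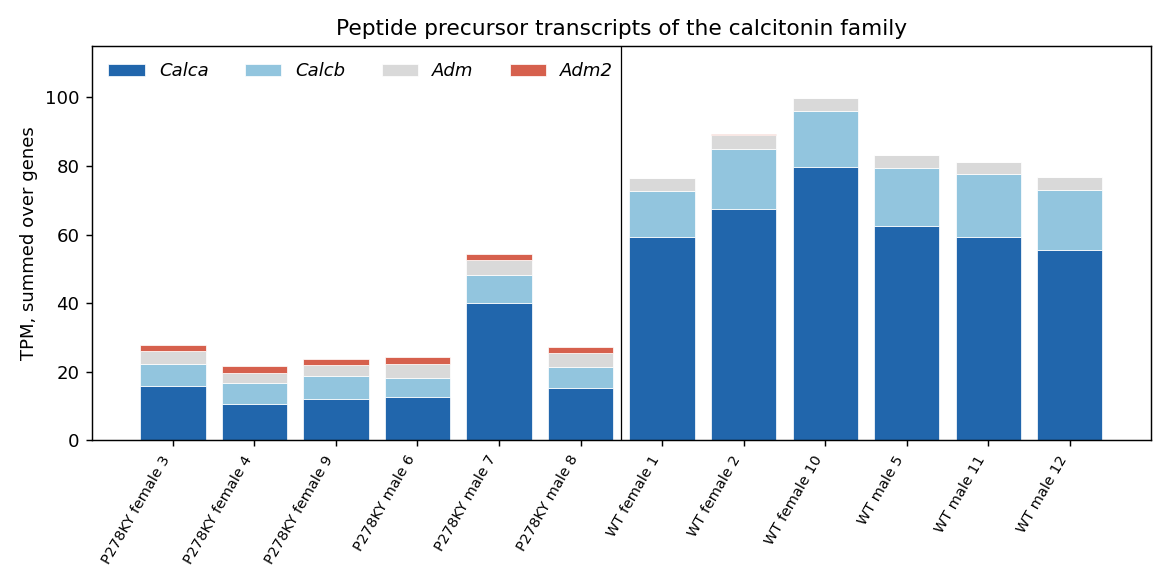
Stacked TPM of the 4 peptide precursor genes in each mouse, P278KY mice left of the line and WT mice right of it. P278KY sums run from 21.6 to 54.4 TPM and WT sums from 76.6 to 99.7 TPM; the Adm2 band is visible in the 6 P278KY mice.

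The receptor genes showed no such separation. Calcrl, the receptor subunit shared by CGRP and the adrenomedullins, was at 12.55, 11.94 and 11.30 TPM in P278KY females 3, 4 and 9 and at 10.80, 11.35 and 11.63 TPM in P278KY males 6, 7 and 8. It was at 38.33, 9.18 and 8.90 TPM in WT females 1, 2 and 10 and at 8.03, 9.26 and 10.77 TPM in WT males 5, 11 and 12. WT female 1 lay far above every other mouse, while the other 5 WT mice lay below all 6 P278KY mice on this scale. With all mice the log2 change was -0.21 (SE 0.38). Without WT female 1 it was 0.29 (SE 0.07), and the means were 11.6 ± 0.602 TPM in P278KY mice (SD, n = 6) and 9.23 ± 0.990 TPM in WT mice (SD, n = 5). The genotypes then no longer overlapped in TPM, by a margin of 10.80 TPM in the lowest P278KY mouse against 10.77 TPM in the highest WT mouse. In CPM they still overlapped, since P278KY female 9, male 6 and male 7, with 18.3, 18.5 and 18.7 CPM, lay below WT female 10, with 19.1 CPM. This exclusion follows from the values and from the muscle and vessel markers of that mouse, so the difference without it is a description as well.

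WT female 1 was also highest in the summed markers of vessels. Endothelial markers (10 genes) summed to 307 to 343 CPM in P278KY mice and to 297 to 374 CPM in 5 WT mice, against 473 CPM in WT female 1. That mouse was highest in Pecam1, Cdh5, Tek, Tie1, Kdr, Emcn and Esam. It lay within the other mice in Flt1 (95.1 CPM, others 86.6 to 104) and Slco1a4 (75.5 CPM, others 61.1 to 83.7). In Cldn5 it had 47.0 CPM, below WT female 10 with 49.4 CPM. None of the 10 passed the genotype test by edgeR. Mural cell markers (9 genes) summed to 214 to 321 CPM in P278KY mice and to 224 to 430 CPM in WT mice, with WT female 1 highest. Within that list Des was at 158 CPM in WT female 1, 72.8 CPM in P278KY female 3, 39.1 CPM in WT female 2 and 32.7 CPM in P278KY female 4. Those mice were the ones rich in skeletal muscle markers, and Des was at 2.19 to 5.94 CPM in all others. Markers of fibroblasts and meninges (6 genes) summed to 348 to 459 CPM in P278KY mice and 402 to 1034 CPM in WT mice, again with WT female 1 highest. None of the mural genes and 1 of the 6 fibroblast genes passed, lower in P278KY. The part of vessel, muscle or meningeal tissue in the Calcrl level of that mouse was not tested.

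**Figure D3:**
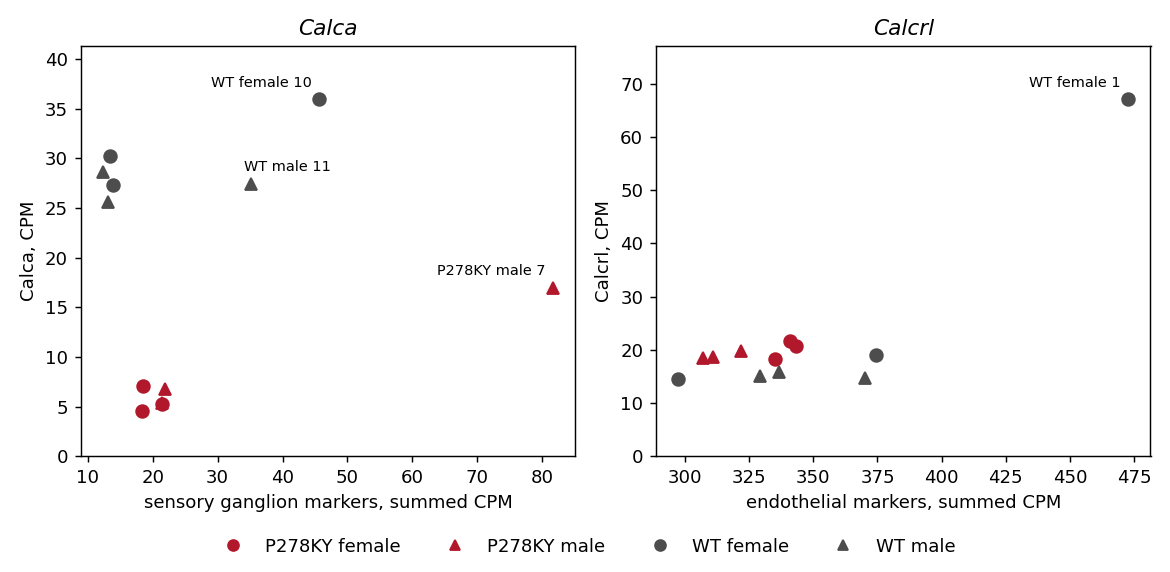
Left, Calca CPM against the summed CPM of the sensory ganglion markers; right, Calcrl CPM against the summed CPM of the endothelial markers; 1 point per mouse, with mice that stand apart named. P278KY male 7 is high in ganglion markers (81.7 CPM) and in Calca for its genotype, and WT female 1 is highest in both endothelial markers (473 CPM) and Calcrl.

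Calcr, the calcitonin receptor, which also forms amylin receptors with RAMPs, was the scarcest receptor transcript. P278KY females 3, 4 and 9 had 0.24, 0.26 and 0.30 TPM, and P278KY males 6, 7 and 8 had 0.28, 0.65 and 0.27 TPM, against 0.15, 0.23 and 0.15 TPM in WT females 1, 2 and 10 and 0.38, 0.33 and 0.37 TPM in WT males 5, 11 and 12. The genotypes overlapped (log2 change 0.45, SE 0.22), with P278KY male 7 highest. Without mice 7, 10 and 11 the means were 0.270 ± 0.0224 TPM in P278KY mice (n = 5) and 0.283 ± 0.112 TPM in WT mice (n = 4). In CPM the order of these means was the other way, 0.471 ± 0.0355 in P278KY mice and 0.395 ± 0.117 in WT mice. Calcr had the smallest p of the 9 members in the test of sex, which the choice of members did not use: it averaged 0.537 CPM in males and 0.379 CPM in females over both genotypes, a log2 difference of 0.51 (SE 0.22, edgeR unadjusted p = 0.0336, adjusted p = 0.519), which did not pass.

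Of the RAMP genes, Ramp1, the partner that makes the CGRP receptor, varied least of all members. It lay between 34.88 and 40.26 TPM (median 38.6) in P278KY mice and between 32.28 and 41.92 TPM (median 36.9) in WT mice, with a log2 change of -0.04 (SE 0.06) and an SD of 0.11 within genotypes on the log2 CPM scale. The receptor partner of CGRP thus lay at overlapping levels in cords whose CGRP precursor levels did not overlap. The ratio of Ramp1 to Calcrl TPM was 3.30 ± 0.180 in P278KY mice and 3.68 ± 1.51 in WT mice (SD, n = 6 each).

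Ramp2, the partner for adrenomedullin in vessels, ranged from 24.78 to 31.16 TPM (median 29.3) in P278KY mice and from 24.83 to 46.60 TPM (median 29.9) in WT mice, with a log2 change of -0.18 (SE 0.12). The highest value was that of WT female 1, and the next WT mouse had 30.94 TPM, so that the ranges coincided apart from that mouse. Ramp3 ranged from 2.36 to 5.51 TPM (median 3.62) in P278KY mice and from 2.09 to 4.31 TPM (median 2.56) in WT mice, with a log2 change of 0.31 (SE 0.22) and overlap. Ramp1 made up 54.0 ± 3.03% of the summed RAMP TPM in P278KY mice and 52.6 ± 6.69% in WT mice.

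None of the 9 members passed edgeR's test of sex, against 0.089% of all genes (16 of 17980); 1 had an unadjusted p under 0.05, as did 1609 of all genes. None passed the test of the genotype by sex interaction, against 0% of all genes, and again 1 had an unadjusted p under 0.05. Over all genes 665 had an unadjusted interaction p under 0.05, and DESeq2's Wald test called 61 genes, none of them a member. For sex DESeq2 called 208 genes, and neither DESeq2 nor limma voom called a member. The log2 change of Calca was -2.46 (SE 0.40) in females and -1.50 (SE 0.38) in males, where male 7 belongs, and the interaction was 0.96 (SE 0.54). For Calcb the changes were -1.41 (SE 0.15) in females and -1.58 (SE 0.15) in males. For Calcrl they were -0.73 (SE 0.49) in females, where WT female 1 with its 67.1 CPM belongs, and 0.32 (SE 0.50) in males. The interaction of Calcrl was 1.05 (SE 0.70) and ran from 0.054 to 1.41 when single mice were left out.

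**Figure D4:**
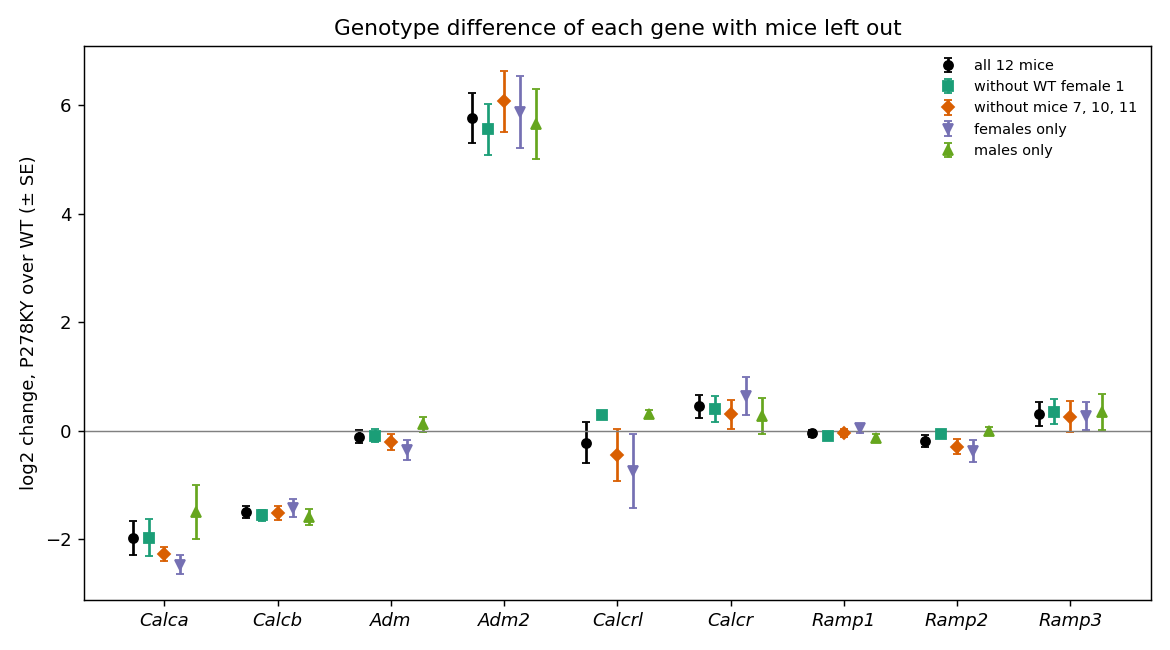
Log2 change of counts, P278KY over WT, with its SE for each gene, from all 12 mice and with mice left out or 1 sex alone. Calca and Calcb stay below 0 and Adm2 above 0 in each, while Calcrl is -0.21 with all mice and 0.29 without WT female 1.

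Ordered by TPM, the members ran in P278KY cords from Ramp1 through Ramp2, Calca, Calcrl, Calcb, Adm, Ramp3 and Adm2 to Calcr. The neighbours Ramp2 and Calca, Calca and Calcrl, and Adm and Ramp3 overlapped in range. In WT cords Calca came highest, followed by Ramp1, Ramp2, Calcb, Calcrl, Adm, Ramp3, Calcr and Adm2, with overlap between Ramp1 and Ramp2, Calcb and Calcrl, and Adm and Ramp3. The deposited FPKM values gave the same order for all 9 members in each genotype. That is no separate check of the order, since within a library TPM and FPKM differ only by a constant factor. In P278KY cords 20.5% of all genes in the tables had a mean TPM at or above that of Calca, against 6.58% in WT cords.

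The other genes of the pathway, taken from lists chosen for their function, gave few calls in the edgeR fit. Of 67 listed genes 66 were tested, and 2 were higher and 0 lower in P278KY, or 3.03%, beside 5.32% of all genes; the difference between these shares was not tested. With DESeq2, 5 of the 66 were higher and 2 lower, beside 716 and 911 of the 17980 genes. On log2(TPM + 1), 16 of the 66 were higher and 0 lower, beside 1358 and 248 of the 17980. In both, unlike in edgeR, the share called was larger among the listed genes than among all genes, which was not tested either. The amylin gene Iapp was at 0 in all mice and was not tested. Adrbk2, a kinase that desensitises receptors of this class, rose to 82.6 ± 0.961 CPM in P278KY mice, against 74.9 ± 4.80 CPM in WT mice (log2 change 0.14, SE 0.03, edgeR adjusted p = 0.0249). Rbfox1, a neuronal splicing factor whose family acts on the calcitonin to CGRP exon choice, rose to 214 ± 4.65 CPM in P278KY mice, against 197 ± 7.41 CPM in WT mice (log2 change 0.12, SE 0.03, edgeR adjusted p = 0.0175). Each call missed the threshold when single mice were left out, while the log2 changes stayed at 0.12 to 0.15 for Adrbk2 and 0.11 to 0.13 for Rbfox1 over the 12 fits: Adrbk2 missed it without P278KY 3, 4, 6 or 9 (adjusted p up to 0.0668), Rbfox1 without P278KY male 7 (0.0546) or WT male 11 (0.0531).

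In the other lists no gene passed edgeR's test. Among 8 genes of precursor cleavage and amidation, the carboxypeptidases Cpd (log2 change -0.17, adjusted p = 0.0899) and Cpe had the smallest p. Among 9 genes of dense-core vesicles, the compartment that releases neuropeptides, these were the priming factor Cadps2 (0.12, adjusted p = 0.109) and the vesicle protein gene Vgf (0.11, adjusted p = 0.154). Of 4 peptidases, neprilysin (Mme) had the largest change of any listed gene (-0.45, SE 0.14, adjusted p = 0.0905) and the endothelin-converting enzyme Ece1 had the next smallest p of the 4 (-0.17, adjusted p = 0.176). Among 23 genes of Gs, adenylyl cyclase and protein kinase A, downstream of all receptors of the family, the cyclases Adcy6 (0.11, adjusted p = 0.0866) and Adcy1 (0.10, adjusted p = 0.107) came closest. Of the 3 tested genes for other receptors and partners, Gpr182, an endothelial scavenger receptor, and Crcp, the CGRP receptor component protein, had the smallest p. The median log2 change over all 66 was 0.01.

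**Figure D5:**
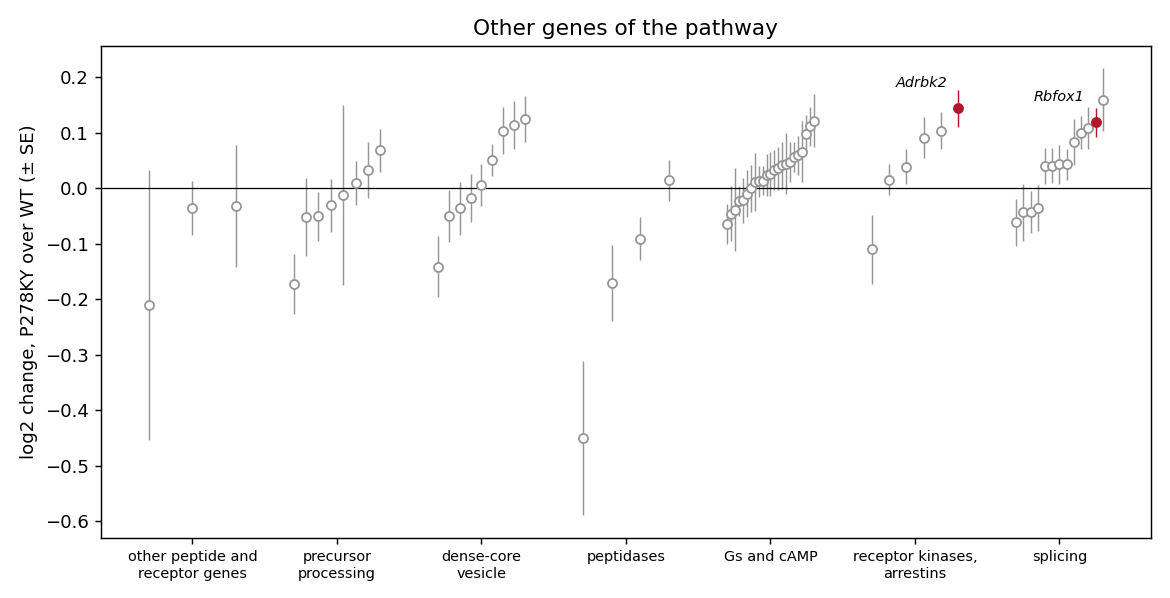
Log2 change, P278KY over WT, with its SE for the 66 tested pathway genes, grouped by list and sorted within it; filled points passed edgeR's adjusted p of 0.05. The filled points are Adrbk2 (0.14) and Rbfox1 (0.12), and Mme (-0.45) lies lowest.

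The genes whose levels ran most like a member's were sought as correlations of log2 CPM deviations from the 4 genotype and sex means over the 12 mice, among 15498 genes. Both genes of a pair share the library of each mouse, and the values describe these mice. They are the highest of many, and for every member searched the 3 highest lay at 0.90 to 0.99, so no link between genes is read from them. Calca ran closest to Ttc9c (r = 0.94) and Capza1, a capping protein subunit of actin filaments (0.93). Without P278KY male 7 these were 0.77 and 0.62. Calcb ran closest to Ankrd35 (0.93), Rars, the cytosolic arginyl-tRNA synthetase (0.92), and 4931406C07Rik (0.92), and without P278KY male 7 at 0.92, 0.88 and 0.85.

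Calcrl ran with Itga1, an integrin subunit (0.99), Pecam1, an endothelial adhesion molecule (0.98), and Cbr2, a carbonyl reductase (0.98). Ramp2 ran with Clic5 (0.99), the class I histocompatibility gene H2-Q7 (0.97), which has near-identical relatives, and Tmem204 (0.97). Without WT female 1 the values were 0.76, 0.71 and 0.81 for Calcrl and 0.90, 0.76 and 0.76 for Ramp2. Between themselves Calcrl and Ramp2 correlated at 0.91 over all 12 mice, including WT female 1, which deviated most for both genes (1.34 and 0.45 in log2 CPM). Adm ran with Thumpd1 (0.94), Dnajc30 (0.91) and Ndufv2, a subunit of respiratory complex I (0.90). Ramp1 ran with Bin1, a membrane-curving protein gene (0.95), Wdr12 (0.95) and Kndc1 (0.94), and Ramp3 with Zfp697 (0.93), Tnrc18 (0.93) and Slc1a6, a glutamate transporter gene (0.92).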

How the data were processed

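Poly(A) RNA of whole spinal cord from 12 mice was sequenced as 75-base pairs with a stranded kit, per the labels' protocols. Per the submitters' processing notes, Bowtie2 2.2.0 and RSEM 1.2.12 were used; of genome build and annotation, none is given in the sources used here. The deposited tables hold, per the file headers, RSEM's expected count, TPM, FPKM and abundance-weighted transcript length for each of 38924 genes. TPM and FPKM as deposited by the authors were used for levels. Expected counts deposited by the authors were rounded to whole numbers, filtered with filterByExpr over 4 groups (minimum count 10; 17980 genes kept), scaled by TMM and fitted in edgeR 4.0.16 (R 4.3.3) with sex and genotype as terms; the interaction came from 4 group means. Adjusted p-values are Benjamini-Hochberg values over all genes tested. SE is the log2 change divided by the square root of F. The procedure was tested on simulated data. Limma 3.58.1 and DESeq2 1.42.0 served as alternatives, as did other filters, log2(TPM + 1), and leaving mice out. Library totals of 26982140 to 39339999 leave few counts for Adm2 and Calcr.

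The members and all gene lists were chosen with earlier results of these data known. All 9 members are named; of the pathway lists, every gene past the threshold, or up to 2 of smallest p; and for members averaging at least 1 CPM, the 3 most correlated genes, of which 1 for Calca is not reported here. Positions and transcripts come from GENCODE M21, matched by gene and transcript ID, and promoters from RefSeq GRCm38.p6. Mouse numbers are labels of single mice; where nothing says more about their origin, p-values measure the spread between these mice.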

Additional observations from a re-analysis of the deposited data

Results flagged for a closer look

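In 6 of 18 groups of 6 mice, 1 for each member and genotype, the highest or lowest TPM lay further from the others than Dixon's 95% limit for 6 samples allows. Chance sets about 1 in 20 groups apart in this way. Among P278KY mice, male 7 stood apart in Calca, at 39.95 TPM with the next mouse at 15.92 TPM, and in Calcr, at 0.65 TPM with the next at 0.30 TPM. Male 7 also had the highest sum of sensory ganglion markers, 81.7 CPM; the part of that tissue in the 2 values was not tested.

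WT female 1 stood apart among WT mice in Calcrl, at 38.33 TPM with the next mouse at 10.77 TPM, in Ramp2, at 46.60 TPM with the next at 30.94 TPM, and as the lowest in Calcb, at 13.31 TPM with the next at 16.54 TPM. This was the mouse with the highest skeletal muscle (8329 CPM), endothelial (473 CPM) and mural (430 CPM) marker sums. Of its mural sum, 158 CPM was Des, a gene that was high only in the mice rich in muscle markers. It also had the lowest WT sum of motor neuron markers (357 CPM). The part of these tissues was not tested. In Ramp3, WT male 5 stood apart at 4.31 TPM with the next at 2.91 TPM.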

How the results depend on the processing

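Calca, Calcb, Adm2, Calcr, Ramp2 and Ramp3 kept the sign of their fitted genotype difference in every alternative run (24 each, 23 for Adm2 and Calcr, which a minimum of 1 CPM in 6 libraries removed). For Ramp2 this says little, since its log2 changes ran from -0.37 to -0.00040. Those of Calcr ran from 0.069 to 0.65 and those of Ramp3 from 0.17 to 0.46. The ratio of mean TPM, P278KY over WT, was 1.01 for Ramp2 without WT female 1 and 0.956 for Calcr without mice 7, 10 and 11. The sign turned for Adm without mice 1 to 4 and in males alone (0.12; -0.35 in females alone), for Calcrl with limma voom sample weights, without WT female 1, without mice 1 to 4 and in males alone, and for Ramp1 on log2(TPM + 1) and in females alone. The log2 change of Adm2 was 6.10 with DESeq2, 5.15 and 5.12 with limma voom (weights; no rounding), 1.47 on log2(TPM + 1), 6.03 without mice 1 to 4 and 6.07 without mice 7, 10 and 11; on log2(TPM + 1) Calcb gave -1.24 and Calcr 0.069. Calca gave -2.46 in females alone. The cause of these shifts was not tested.

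Genes higher and lower in P278KY numbered 716 and 911 with DESeq2, 721 and 875 with voom weights, 1358 and 248 on log2(TPM + 1), 87 and 166 without mice 7, 10 and 11, 27 and 57 without mice 9 to 12, 24 and 44 in females and 126 and 224 in males; without mice 1 to 4, 201 were higher. Pathway genes higher and lower numbered 5 and 2 with DESeq2, 4 and 1 with voom weights and 16 and 0 on log2(TPM + 1); without mice 1 to 4, without 7, 10 and 11, without 9 to 12 and in females alone 0 were higher, and in males 0 were higher and 1 lower. Mice 9 to 12 were left out because earlier results of these data set them apart, on grounds not reported here. They are P278KY female 9, WT female 10, WT male 11 and WT male 12, so leaving them out kept 5 P278KY and 3 WT mice. Without them 84 genes were called, against 956 with all mice and 557 without mice 1 to 4. The cause of that drop was not tested.

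Leaving out each mouse in turn gave 230 to 572 genes higher and 312 to 813 lower, 1 to 4 pathway genes higher and 0 to 1 lower, and log2 changes of -2.33 to -1.85 for Calca, -1.56 to -1.43 for Calcb, 5.54 to 6.32 for Adm2 and -0.34 to 0.29 for Calcrl. No paired analysis was possible because the mouse numbers are not shared between genotypes.

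Of values that had passed no test, the sign also turned for the sex effect of Calca (-0.068 with voom weights, -0.0058 without rounding), of Ramp2 (0.11 without mice 1 to 4) and of Ramp1 (0.0035 without mice 7, 10 and 11), for the interaction of Adm2 (2.27 without mice 7, 10 and 11), and for the genotype effect of Gpr182 (0.029 with voom weights), Crcp (0.063) and Ece1 (0.060), both on log2(TPM + 1). Leaving out each mouse in turn, the sex effect ran from -0.075 to 0.37 for Calca, -0.067 to 0.011 for Ramp1 and -0.18 to 0.0096 for Ramp2, the interaction from -2.11 to 1.77 for Adm2 and -0.21 to 0.42 for Ramp3, and the genotype effect of Gpr182 from -0.32 to 0.076; no sex or interaction call on a member was made in any of these fits. Depth limits Adm2 (2 counts in WT) and Calcr most.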
